A study of Hordeum vulgare with 30 samples.

Results

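Of the 35826 barley genes listed in the count table, 2 are described here across 30 root libraries. HORVU.MOREX.r3.7HG0700030, described as "Nitrate transporter 1.1", is called the nitrate transporter. HORVU.MOREX.r3.3HG0266310, described as "Vacuolar cation/proton exchanger, putative", is called the cation exchanger. Both were chosen by their measured response, since the study found them lowered by waterlogging in every variety of these same samples. For these 2 genes, the difference between waterlogged and control roots is therefore a description: no p-value is given for it, and the calls that the rule for all genes makes are listed without support being drawn from them. Their p-values below concern differences between varieties. In both treatments, the libraries compared there also entered the contrast that chose the genes.

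Barley (Hordeum vulgare) plants of 5 varieties were 10 days old when their pots were either left with normal watering (control) or flooded with tap water to just above the soil for 24 h (waterlogged). By the labels, Golden Promise is a spring variety with two-row ears. The winter varieties are Infinity and Regina, with two-row ears, and Passport and Pilastro, with six-row ears. Each of the 10 combinations of variety and treatment had 3 libraries of polyadenylated RNA, and each library pooled the roots of 3 plants. The study describes the replicates as independent experiments.

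Nitrate transporters of the NRT1/PTR family (NPF) carry nitrate, peptides and other small molecules across membranes. In Arabidopsis, NRT1.1 takes up nitrate from the soil and also acts as a nitrate sensor. Vacuolar cation/proton exchangers use the proton gradient across the vacuolar membrane to move calcium and other cations out of the cytosol. Flooded soil loses oxygen quickly, so that roots turn to fermentation and have less energy for building such proton gradients. Calcium in the cytosol is an early signal in that response.

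The libraries held 9601984 to 12349136 counts, with a median of 11982157.5. The hypoxia response genes HvHB (a phytoglobin), HvADH1 (alcohol dehydrogenase) and HvPDC1 (pyruvate decarboxylase) were raised in each of the 5 varieties, which served as a check of the treatment labels. Genes with an adjusted p under 0.05 (edgeR, Benjamini-Hochberg over 20576 genes) are called raised or lowered. The share of genes raised was 2.56% in Regina, 2.46% in Pilastro, 0.729% in Passport, 3% in Infinity and 0.379% in Golden Promise. The tables at hand describe no gene that defines root cells. The small subunit of Rubisco, a shoot gene, had 6 to 40 counts per control library and 0 to 25 per waterlogged library. In whole roots, fewer cells of a type and less RNA per cell cannot be told apart.

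The nitrate transporter was read well in every library, with 406 to 1208 counts in waterlogged libraries and at least 1168 in control libraries. Levels are given as CPM, the count scaled to the size of the library and corrected by TMM, in the order of replicates 1, 2 and 3. In Golden Promise, control roots had 137, 145 and 150.5 CPM and waterlogged roots had 82.7, 70.6 and 97.2 CPM. The lowest control library thus stayed well above the highest waterlogged one. In Infinity, control roots had 171, 228 and 162 CPM, and waterlogged roots had 69.2, 105 and 111 CPM. The waterlogged libraries of Infinity were spread widely, with replicate 1 far below the other two. In Passport, control roots had 235, 224 and 144 CPM, and waterlogged roots had 93.6, 89.7 and 90.9 CPM. Here the control replicate 3 was low and the waterlogged libraries were nearly equal.

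In Pilastro, the nitrate transporter had 133, 121 and 134 CPM in control roots and 54.2, 84.1 and 54.6 CPM in waterlogged roots. Replicate 2 was the highest of the waterlogged Pilastro libraries and the lowest of the control ones. In Regina, control roots had 108.4, 121 and 171 CPM, and waterlogged roots had 54.9, 39.6 and 50.9 CPM. These were the lowest waterlogged levels of any variety on average. The plot of CPM by library shows these values.

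**Figure D1:**
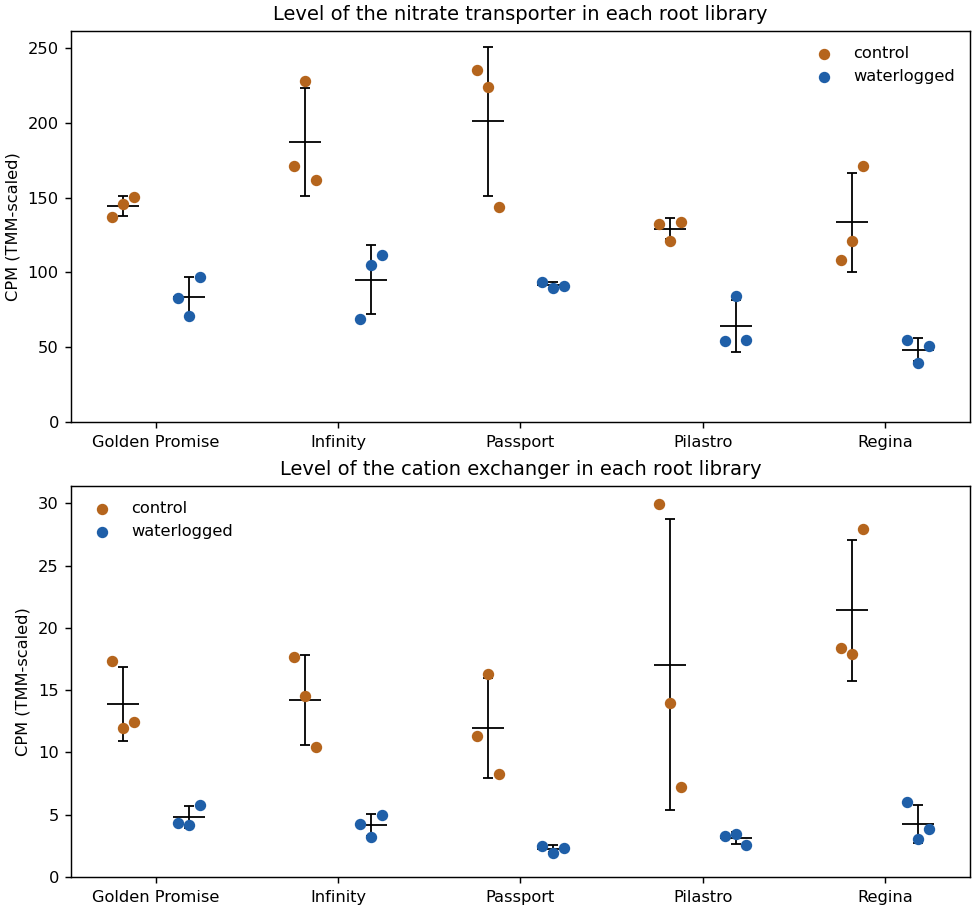
Level of the nitrate transporter (top) and the cation exchanger (bottom) in CPM (TMM-scaled) in the 30 root libraries, by variety and treatment. Points are libraries in the order of replicates 1, 2 and 3, horizontal bars are means and error bars are SDs (n = 3). Within each variety the waterlogged points lie below the control points for both genes.

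As a mean ± SD (n = 3), the level of the nitrate transporter went from 144 ± 6.73 CPM in control to 83.5 ± 13.3 CPM in waterlogged Golden Promise roots. It went from 187 ± 36.1 to 95.3 ± 22.8 CPM in Infinity and from 201 ± 49.7 to 91.4 ± 2.04 CPM in Passport. It went from 129 ± 7.17 to 64.3 ± 17.2 CPM in Pilastro and from 133 ± 33.3 to 48.5 ± 7.96 CPM in Regina. Waterlogged roots thus kept between 36.3% (Regina) and 57.8% (Golden Promise) of the control level of this transporter.

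The cation exchanger was read about an order of magnitude less often than the nitrate transporter, with 24 to 363 counts per library. In Golden Promise, control roots had 17.3, 11.96 and 12.4 CPM and waterlogged roots had 4.34, 4.21 and 5.79 CPM. In Infinity, control roots had 17.7, 14.5 and 10.4 CPM and waterlogged roots had 4.25, 3.24 and 4.98 CPM. Both varieties showed a clear gap between the treatments. In Passport, control roots had 11.4, 16.3 and 8.28 CPM, and waterlogged roots had 2.50, 1.96 and 2.34 CPM. The waterlogged Passport libraries were the lowest for this exchanger, and its smallest count, 24 in replicate 2, has an exact Poisson 95% interval of 15.4 to 35.7 counts, which covers counting error only.

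Pilastro had the widest spread of the cation exchanger, with 29.97, 14.0 and 7.20 CPM in control roots beside 3.301, 3.46 and 2.58 CPM in waterlogged roots. Control replicate 1 of Pilastro was the highest and control replicate 3 the lowest of all 15 control libraries. In the same 3 control libraries, HvADH1 had 35.1, 120 and 95.8 CPM, so the library with the most exchanger had the least HvADH1, and its part in that spread was not tested. In Regina, control roots had 18.4, 17.9 and 27.9 CPM, and waterlogged roots had 5.98, 3.02 and 3.82 CPM. Control Regina roots had the highest mean level of the exchanger.

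The mean level of the cation exchanger went from 13.9 ± 2.98 CPM in control to 4.78 ± 0.879 CPM in waterlogged Golden Promise roots (SD, n = 3). It went from 14.2 ± 3.62 to 4.15 ± 0.874 CPM in Infinity and from 11.97 ± 4.03 to 2.27 ± 0.277 CPM in Passport. It went from 17.05 ± 11.7 to 3.11 ± 0.470 CPM in Pilastro and from 21.4 ± 5.67 to 4.27 ± 1.53 CPM in Regina. The exchanger thus kept between 18.3% (Pilastro) and 34.4% (Golden Promise) of its control level.

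On the log2 scale, the nitrate transporter changed most in Regina, by -1.46 (SE 0.218), then in Passport by -1.14 (SE 0.215), in Pilastro by -1.01 (SE 0.215), in Infinity by -0.97 (SE 0.214) and in Golden Promise by -0.79 (SE 0.214). The cation exchanger changed by -2.45 (SE 0.385) in Pilastro, -2.39 (SE 0.393) in Passport, -2.32 (SE 0.381) in Regina, -1.77 (SE 0.378) in Infinity and -1.54 (SE 0.371) in Golden Promise. The median over all genes tested lay between -0.03 and 0 in the 5 varieties. Golden Promise had the smallest change of either gene.

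**Figure D2:**
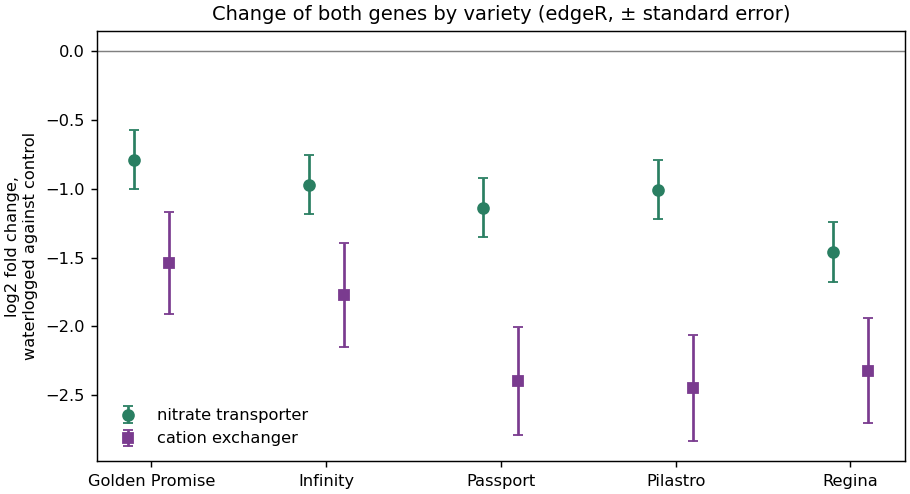
Log2 fold change of waterlogged against control roots for the nitrate transporter (circles) and the cation exchanger (squares) in each variety. Error bars are standard errors from the edgeR fit; values lie between -0.79 and -1.46 for the transporter and between -1.54 and -2.45 for the exchanger.

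By the edgeR rule, both genes were called lowered in Infinity, Passport, Pilastro and Regina, and neither was in Golden Promise. Of all genes tested, the share lowered was 1.49% in Regina, 1.36% in Pilastro, 0.923% in Infinity, 0.355% in Passport and 0.0632% in Golden Promise. DESeq2 called both genes in all 5 varieties. With each variety fitted alone, the transporter was called only in Passport and Regina, and the exchanger only in Golden Promise, Passport and Regina. With 1 library left out, the transporter lost its call in Infinity (without control replicate 2 or waterlogged replicate 1), in Passport (control 1 or waterlogged 2) or in Pilastro (waterlogged 1 or 3), which left 3 varieties. The exchanger was called in all 5 without Pilastro control replicate 1 or 3. Since this contrast chose the genes, the calls add nothing to their choice.

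Neither gene overlapped between waterlogged and control libraries in any variety, which held for 0.486% of the genes tested. Over all varieties, the highest waterlogged level of the cation exchanger, 5.98 CPM in Regina replicate 1, was below the lowest control level, 7.20 CPM in Pilastro replicate 3. Such a gap between the 15 waterlogged and the 15 control libraries was seen for 0.068% of the genes. The nitrate transporter missed it by 1 library, since waterlogged Infinity replicate 3 (111.4 CPM) was above control Regina replicate 1 (108.4 CPM).

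Differences in log2 change between varieties are given as a description, without a p-value. Their 95% intervals were not adjusted for the number of pairs and come from the values that chose the genes. No difference is therefore read from an interval without 0. For the nitrate transporter, the change in Golden Promise was smaller than that in Regina by 0.67 on the log2 scale (95% interval 0.05 to 1.297). For the other 9 pairs of varieties, the 95% interval of the difference included 0. For the cation exchanger, all 10 intervals included 0, and the widest gap was 0.91 between Golden Promise and Pilastro (-0.17 to 1.99). The intervals of the exchanger are wide, and for each pair of varieties they still hold a difference of 1 log2 unit or close to it.

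The level of the nitrate transporter differed between varieties in waterlogged roots (edgeR F-test with 4 degrees of freedom, F = 6.85, adjusted p = 0.00737), as did that of 23.3% of all genes tested. In order, the mean level was 95.3 CPM in Infinity, 91.4 in Passport, 83.5 in Golden Promise, 64.3 in Pilastro and 48.5 in Regina. The waterlogged libraries compared here also entered the contrast by which the gene was chosen. All 3 libraries of Regina (39.6 to 54.9 CPM) lay below all libraries of Golden Promise, Infinity and Passport (69.2 to 111 CPM).

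Of the 10 pairs of waterlogged varieties, 3 passed the test for the nitrate transporter, and each involved Regina. An unadjusted edgeR p under 0.05 was found for 5 pairs. These also held Infinity and Passport above Pilastro, by 0.57 (edgeR adjusted p = 0.0916) and 0.51 (adjusted p = 0.246) on the log2 scale. The transporter was higher than in Regina by 0.97 on the log2 scale in Infinity (SE 0.216, edgeR adjusted p = 0.00600), by 0.92 in Passport (SE 0.216, adjusted p = 0.00943) and by 0.78 in Golden Promise (SE 0.216, adjusted p = 0.0204). Between these varieties and Regina, 4.83%, 6.31% and 9.36% of all genes passed, respectively. Pilastro did not differ from Regina beyond the spread, with a log2 difference of 0.41 (95% interval -0.04 to 0.85, edgeR adjusted p = 0.348, 4.7% of all genes passing). Nor did any neighbours in that order differ from each other. The call rests in part on waterlogged Regina replicate 2, the lowest library. Without it, the adjusted p was 0.0518 for Infinity, 0.0651 for Passport and 0.120 for Golden Promise. The call for Golden Promise was also lost without its own waterlogged replicate 1 (adjusted p = 0.0537) or 3 (0.116).

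In control roots, the order for the nitrate transporter was Passport, Infinity, Golden Promise, Regina and Pilastro, with means from 201 to 129 CPM. The F-test missed the threshold (F = 3.84, edgeR adjusted p = 0.0567), where 26.7% of all genes passed, and DESeq2's likelihood ratio test passed it (adjusted p = 0.0302). The largest difference, Passport above Pilastro by 0.64 on the log2 scale (95% interval 0.20 to 1.08), had an edgeR adjusted p of 0.0862. Of the 10 pairs of control varieties, 0 passed by edgeR and 0 by DESeq2, and 5 had an unadjusted edgeR p under 0.05. Regina, lowest in waterlogged roots, had 133 ± 33.3 CPM in control roots (SD, n = 3), close to Pilastro and Golden Promise.

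The cation exchanger did not pass the test between varieties, either in control roots (edgeR F-test, adjusted p = 0.316) or in waterlogged roots (adjusted p = 0.202). With the waterlogged libraries fitted alone, it came close to the threshold (edgeR F-test, adjusted p = 0.0568). The order of its means was Regina, Pilastro, Infinity, Golden Promise and Passport in control roots, and Golden Promise, Regina, Infinity, Pilastro and Passport in waterlogged roots. Passport was thus lowest in both treatments. Its largest difference in control roots was from Regina, by -0.84 on the log2 scale (95% interval -1.58 to -0.10, edgeR adjusted p = 0.186). In waterlogged roots, Passport was below Golden Promise, which was higher by 1.07 on the log2 scale (95% interval 0.26 to 1.89, edgeR adjusted p = 0.0916). Of the 10 pairs per treatment, edgeR and DESeq2 each called 0. An unadjusted edgeR p under 0.05 was found for 1 control pair and 3 waterlogged pairs, all with Passport.

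The labels also give season and row number. In control roots, the nitrate transporter differed between the spring variety and the winter varieties by -0.14 on the log2 scale (SE 0.169, edgeR adjusted p = 0.637), and the cation exchanger by -0.18 (SE 0.284, adjusted p = 0.740). Of all genes, 14.4% passed this contrast. Since Golden Promise was the only spring variety, season and variety cannot be told apart. Between six-row and two-row winter varieties, the difference was 0.03 (SE 0.150, edgeR adjusted p = 0.936) for the transporter and -0.29 (SE 0.251, adjusted p = 0.475) for the exchanger, where 15.4% of all genes passed. The count columns number the libraries of both six-row varieties differently from those of the other varieties, and the sources do not say why. Row number and this numbering cannot be told apart. Replicate numbers here follow the sample titles.

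Seen together, the 30 libraries fell into a group of control libraries high in both genes and a group of waterlogged libraries low in both. Over the 30 libraries, the log2 CPM of both genes had a Pearson correlation of 0.72, a value that the shared treatment contributes to. The ratio of the exchanger to the transporter was lower in waterlogged roots than in control roots, with log2 differences of -1.16 in Passport, -1.13 in Pilastro, -0.86 in Regina, -0.74 in Infinity and -0.70 in Golden Promise. The ratios overlapped between treatments only in Pilastro. In Infinity the gap was narrow, with a log2 ratio of -3.96 in control replicate 2 and -3.97 in waterlogged replicate 1. These ratios come from the values that chose the genes, and the share for other pairs of genes was not computed.

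**Figure D3:**
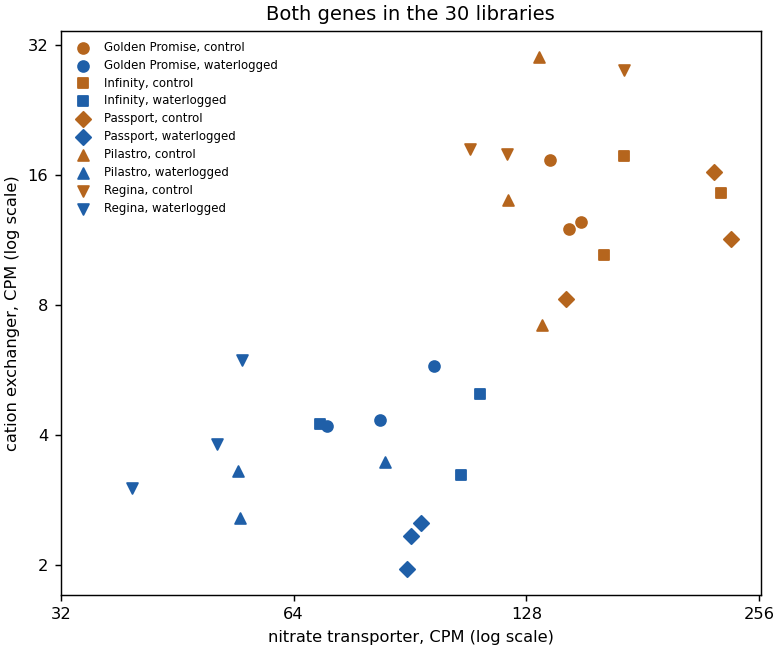
Level of the cation exchanger against that of the nitrate transporter in the 30 libraries, both in CPM on log axes. Brown marks are control and blue marks waterlogged libraries, and shapes are varieties. All waterlogged libraries lie at or below 5.98 CPM of the exchanger and all control libraries at or above 7.20 CPM.

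Within groups, the libraries were compared by their deviation from the mean log2 CPM of their own variety and treatment. The SD of these deviations was 0.27 for the nitrate transporter and 0.46 for the cation exchanger. For the exchanger it was 0.57 in control and 0.30 in waterlogged libraries. Deviations of both genes had a Pearson r of 0.39 and a Spearman rho of 0.49 over the 30 libraries, with r = 0.37 in control and 0.49 in waterlogged libraries, and 0.56 without the 2 libraries farthest from the median of the exchanger. Libraries of a group share a mean, so that these points are not independent, and 7 such relations were computed.

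The nitrate transporter deviated against HvADH1, the alcohol dehydrogenase of fermentation. The Pearson r was -0.65 and Spearman's rho -0.64 over 30 libraries, with r = -0.56 in control and -0.74 in waterlogged libraries, and -0.67 without the 2 farthest libraries. In waterlogged Infinity, HvADH1 had 1410.1, 730 and 280 CPM, beside 69.2, 105 and 111 CPM of the transporter. In control Regina, HvADH1 had 61.2, 31.3 and 19.1 CPM, beside 108.4, 121 and 171 CPM of the transporter. In both groups, chosen as examples, the order of the libraries was thus opposite for HvADH1 and the transporter. In waterlogged Regina it was not: replicate 1 was highest in both, at 1004 CPM of HvADH1 and 54.9 CPM of the transporter. The r with HvADH1 was -0.49 in six-row and -0.73 in two-row varieties. In 7 of the 10 groups the library lowest in HvADH1 was highest in the transporter, and in 4 the library highest in HvADH1 was lowest in it. With 3 libraries per group, such matches also arise without a relation. The share of all genes that deviate against HvADH1 was not computed, so the relation is not shown to be particular to the transporter. Against HvHB and HvPDC1, the r of the transporter was -0.45 and -0.49. With HvHB it was -0.12 in six-row and -0.61 in two-row varieties.

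**Figure D4:**
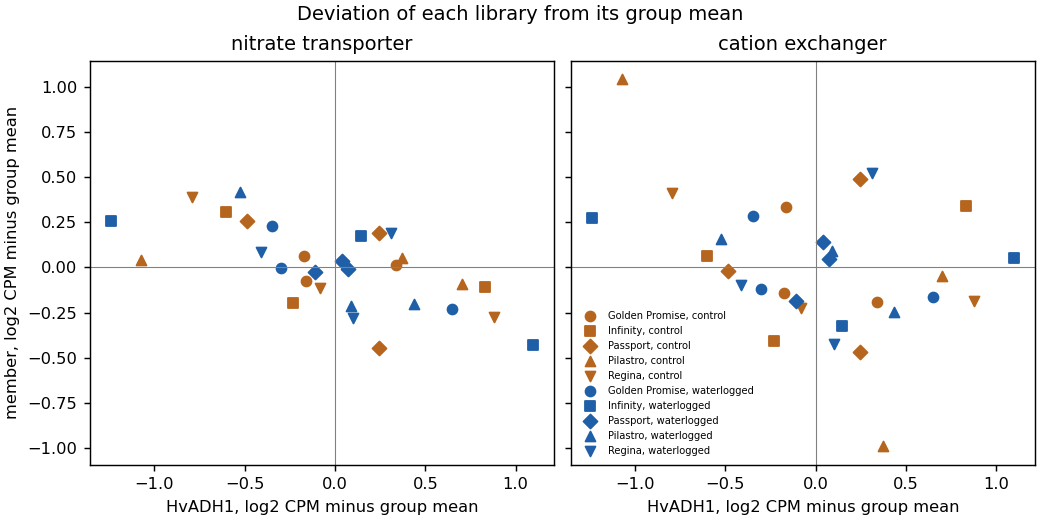
Deviation of each library from the mean of its variety and treatment, in log2 CPM, for the nitrate transporter (left) and the cation exchanger (right) against HvADH1. Brown marks are control and blue marks waterlogged libraries, shapes are varieties; r was -0.65 on the left and -0.36 on the right.

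Over the 30 libraries, the cation exchanger deviated less regularly against the same genes. Its r was -0.36 with HvADH1, -0.32 with HvHB and -0.15 with HvPDC1. With HvADH1 it was -0.44 in control and -0.25 in waterlogged libraries, and -0.62 in six-row and -0.18 in two-row varieties. In six-row varieties, the exchanger thus had a stronger r than the transporter with HvADH1 (-0.62 against -0.49) and HvHB (-0.46 against -0.12). With HvPDC1 the exchanger had the weaker one there (-0.21 against -0.41). Without the 2 libraries farthest in HvADH1, its r with that gene was -0.15, so the relation rested on those libraries. One of them is control Pilastro replicate 1, the highest in the exchanger.

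Other transporters of the same kind were taken from the gene descriptions at hand, which cover 4766 genes, chiefly on chromosome 1H. Of 11 genes on 1H described as nitrate transporters, NRT1/PTR family proteins or peptide transporters, 10 passed the filter on low counts. Over the 5 varieties, these 10 genes were lowered in 1 case and raised in 1 case by edgeR, both in Regina, where 1.49% of all genes were lowered and 2.56% raised. At an unadjusted edgeR p under 0.05, 4 of the 50 tests were lowered and 4 raised. After adjustment, the raised calls were 4 with a replicate block in all varieties, and 0 without the filter or with total counts in place of TMM. The median log2 change of the 10 genes was -0.01, 0.18, 0.05, 0.25 and 0.08 in Golden Promise, Infinity, Passport, Pilastro and Regina, beside medians between -0.03 and 0 over all genes tested.

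Of these, 3 share the description of the nitrate transporter. HORVU.MOREX.r3.1HG0056390 was the most abundant, with 155 to 1159 CPM in control roots, and its log2 change ranged from -0.26 to 0.48 without a call. HORVU.MOREX.r3.1HG0056410 had log2 changes between 0.48 and 1.303, without a call, so that all 5 values were above 0. The third, HORVU.MOREX.r3.1HG0005090, was scarce, with 0 to 38 counts per library, and was called lowered in Regina (edgeR adjusted p = 0.00697). It had 2 to 25 counts in the control libraries and 0 in each waterlogged library of Regina. With 3 counts set for each of these waterlogged libraries, the control mean was 3.88-fold higher. The lowest control library, with 2 counts, lay below that floor, so this is no lower bound. The same description therefore covered genes with values in both directions. The gene called raised in Regina was the peptide transporter HORVU.MOREX.r3.1HG0053890, with a log2 change of 0.71 (SE 0.199, edgeR adjusted p = 0.0455). It was named after its values were seen, and in 17 of the 30 fits without 1 library no gene of this list was called raised.

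**Figure D5:**
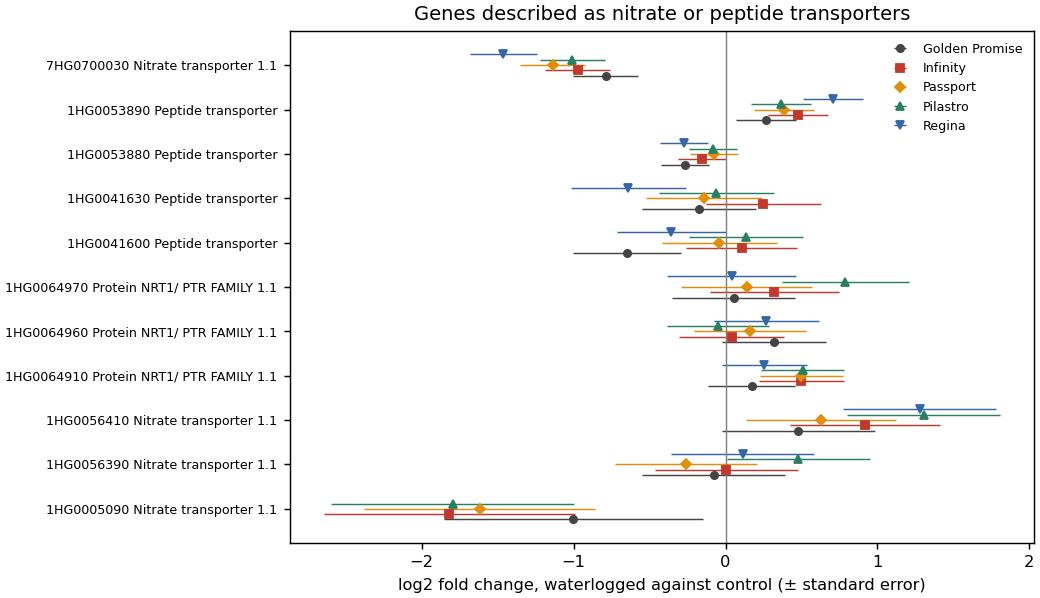
Log2 fold change of waterlogged against control roots, with standard errors, for the 10 tested genes on 1H described as nitrate or peptide transporters, and for the nitrate transporter on 7H (top row). Marks are varieties; Regina is left out for the gene in the bottom row, which had no count in its waterlogged libraries. The top row lies between -0.79 and -1.46, and most other rows lie around 0.

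Reads were single-end and short, and how reads that fit several near-identical genes were counted is not given in the sources used here. Counts of transporters with the same description could thus be split between copies.

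Among 13 genes on 1H described as cation antiporters, calcium or cation pumps, proton pumps, or potassium transporters and channels, 9 were tested. By edgeR, 0 were called in any variety, with 4 of 45 tests lowered and 0 raised at an unadjusted p under 0.05, and DESeq2 called 1 lowered. Their median log2 change was between -0.19 and 0.05 in the 5 varieties. Proton pumps of the vacuole build the gradient that exchangers use. This list holds a pyrophosphate-energized pump (log2 changes -0.21 to 0.32) and a subunit of the V-type pump (-0.26 to -0.03). Neither was called by edgeR, and pump genes on other chromosomes were not listed. Of 4 genes for nitrogen use on 1H, which include a glutamine synthetase and an ammonium transporter, edgeR and DESeq2 called 0, with 1 lowered and 1 raised of 20 tests at an unadjusted p under 0.05.

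A further 8 transporter and nitrogen genes were listed by the study from these same samples or from known tolerance regions, so their direction is not independent evidence. They were lowered in 6 of 40 tests by edgeR and in 12 by DESeq2, and raised in 0 (0 also at an unadjusted p under 0.05). Of the 6 calls, 2 were in Infinity and 4 in Regina, where 0.923% and 1.49% of all genes were lowered. With 1 library left out the count ranged from 2 to 7. It was 2 without Regina waterlogged replicate 2, and 3 without Regina control replicate 2, Infinity control replicate 2, or Infinity waterlogged replicate 1 or 2. A peptide transporter, HORVU.MOREX.r3.4HG0393720, named after its values were seen, was lowered in Infinity (log2 change -1.05) and in Regina (-1.28). It changed nearly as much without a call in Golden Promise (-0.91), Passport (-0.92) and Pilastro (-0.93). The other calls were a putative peptide transporter in Infinity, and a nitrate transporter, an NPF protein and a cation calcium exchanger in Regina, all with a lower control level than that gene.

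The genes whose log2 CPM was most like that of each gene over the 30 libraries were ranked by Pearson r, of which 7 of the first 10 had a description for either gene. This is a description, since all share the treatment groups. Most like the nitrate transporter was a sulfite exporter of the TauE/SafE family (r = 0.89), followed by HORVU.MOREX.r3.7HG0737960 (0.88), which has no description at hand. An 11S globulin seed storage protein (0.87), a tonoplast dicarboxylate transporter (0.85), which moves malate across the vacuolar membrane, and arginine decarboxylase (0.85), an enzyme of polyamine synthesis, came next. An endoglucanase (0.85), a MYB transcription factor (0.84) and an O-fucosyltransferase-like protein (0.83) completed the described genes. The tonoplast dicarboxylate transporter had log2 changes between -2.24 and -0.99 and the arginine decarboxylase between -3.23 and -1.51.

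Most like the cation exchanger were an external alternative NAD(P)H-ubiquinone oxidoreductase of mitochondria (r = 0.92), an aldehyde dehydrogenase (0.92) and a carbonic anhydrase (0.91). The first oxidizes cytosolic NAD(P)H in the respiratory chain without pumping protons. HORVU.MOREX.r3.7HG0650500 (0.90), which has no description at hand, a beta-glucosidase (0.89), the cysteine desulfurase IscS (0.88), which supplies sulfur for iron-sulfur clusters, a FRIGIDA protein (0.87) and the O-fucosyltransferase-like protein (0.87) followed. The oxidoreductase had log2 changes between -0.75 and -0.51 and the carbonic anhydrase between -2.13 and -1.25. The O-fucosyltransferase-like gene was the 1 gene shared by both lists of 10. The exchanger itself ranked 164th among the genes most like the transporter, and the transporter ranked 234th for the exchanger.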

How the data were processed

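Per the study's methods and the labels, the authors aligned single-end reads to the Morex V3 genome with Bowtie2 2.4.5, handled files with SAMtools 1.15.1, and estimated gene abundance with StringTie 2.1.7. The deposited values are whole-number counts per gene, not normalized (0 unused columns). Of 35826 genes listed, 10832 were at 0 throughout. None of the 58438 reference entries matched a gene ID, so names come from the study's descriptions.

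Counts were analyzed with R 4.3.3 and edgeR 4.0.16: TMM scaling, filterByExpr, 1 coefficient per variety and treatment, all 30 libraries in 1 quasi-likelihood fit (common dispersion 0.0653), Benjamini-Hochberg over 20576 genes. Log2 CPM used a prior count of 2. DESeq2 1.42.0 was an alternative. Others were size factors, no filter or a stricter one, a replicate block, each variety or treatment alone, and leaving out 1 library. The code was tested on simulated data. Figures used matplotlib 3.10.9.

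Replicates differed beyond counting noise (chi-square per degree of freedom 13.1 to 54.2). Same-numbered control and waterlogged libraries deviated together (r over 0.1 in all 3 pairs) in Passport (0.174, 0.268, 0.146) and Regina (0.108, 0.164, 0.304). The other varieties did not pass this cutoff in all 3 pairs: Golden Promise (-0.0415, 0.229, 0.234), Infinity (-0.0861, 0.185, 0.0881) and Pilastro (0.193, -0.0299, 0.450). The cutoff does not show that their libraries are unpaired.

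The members, lists and tests were chosen with earlier results of these data known. Named were both genes, the hypoxia genes, list genes called in at least 3 varieties or described as nitrate transporter 1.1, and, of the 10 genes most like each gene, those with a description and the first without one. Outside this rule, 2 peptide transporters were named after their values were seen.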

Additional observations from a re-analysis of the deposited data

How the results depend on the processing

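The log2 changes of both genes kept their direction and moved by less than the spread between replicates under DESeq2's size factors, DESeq2, no filter, a stricter filter, a replicate block, each variety alone, and total counts in place of TMM, the last chosen after seeing the data. With 1 library left out, the change of the nitrate transporter ranged from -0.91 to -0.68 in Golden Promise, -1.10 to -0.77 in Infinity, -1.31 to -1.01 in Passport, -1.27 to -0.90 in Pilastro and -1.59 to -1.22 in Regina. That of the cation exchanger ranged from -1.70 to -1.33, -1.95 to -1.58, -2.58 to -2.09, -2.80 to -1.79 and -2.64 to -2.06 in the same order. The number of varieties in which edgeR called a gene lowered ranged from 3 to 4 for the transporter and from 4 to 5 for the exchanger. The adjusted p between varieties for the transporter ranged from 0.0205 to 0.156 in control and from 0.00231 to 0.0383 in waterlogged roots. For the exchanger it ranged from 0.0863 to 0.650 and from 0.0826 to 0.377. With each treatment fitted alone, the edgeR F-test for the transporter gave an adjusted p of 0.0893 in control and 0.0246 in waterlogged roots. For the exchanger that fit gave 0.507 and 0.0568. The control test of the transporter passed under DESeq2 (0.0302), and also without Passport control replicate 3 (0.0205), Regina control replicate 3 (0.0217), Infinity waterlogged replicate 1 (0.0463) or Pilastro waterlogged replicate 2 (0.0458). The cause was not tested.

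With the replicate block in Passport and Regina only, the transporter changed by -1.11 in Passport and -1.45 in Regina. The exchanger changed by -2.35 and -2.34, and no call of either gene changed. With the block in all varieties, edgeR called 25, 323, 146, 432 lowered genes in Golden Promise, Infinity, Passport and Pilastro, against 13, 190, 73 and 279 without it. DESeq2 called 47 genes lowered in Golden Promise, 228 in Passport, 611 in Pilastro and 477 in Regina (edgeR 306). It called 182, 1028, 370 and 907 raised in Golden Promise, Infinity, Passport and Pilastro, against 78, 617, 150 and 506 by edgeR. With each variety alone, 6, 0 and 97 genes were called lowered in Infinity, Pilastro and Regina. Of the 10 genes most like the transporter, 1 was shared when group means were used. For the exchanger 6 were shared with Spearman's rho and 6 with group means. The cation exchanger had 24 to 72 counts in waterlogged libraries and the nitrate transporter 406 to 1208, so counting error is larger for the exchanger.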
